A study of Mus musculus with 2 samples.

Results

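The miR-200 family, miR-203 and miR-205 are the microRNAs by which epithelial cells are usually recognised, and their 7 loci were examined here in the embryonic mouse midbrain. The loci are Mir200a, Mir200b and Mir429, Mir200c and Mir141, Mir203, and Mir205. They were selected by gene symbol, and no measured value entered that rule, but the choice was made with earlier results of these data known. All 7 had a row among the 1973 loci of the count tables, and all 7 passed the minimum of 10 counts over both libraries that was set for testing. The series holds 1 group, midbrain tissue, the part of the neural tube that gives rise to the tectum and tegmentum, of strain B6NCrl embryos at 13.5 days, healthy and of mixed sex, with 2 biological replicates and 1 library of RNA under 30 nt from each. The labels name no other allele, agent or treatment. The samples share 1 donor record, and nothing in the labels says how independent the pools of embryos were, so the spread given here is that between these libraries.

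A microRNA is cut from a hairpin precursor and pairs with messenger RNAs mainly through its seed, bases 2 to 8 from its 5′ end. The miR-200 family is best known for repressing Zeb1 and Zeb2, transcription factors that silence E-cadherin and drive the change from epithelial to mesenchymal cells, and these factors in turn repress the miR-200 genes. miR-203 is best known from the epidermis, where it restrains p63 and the renewal of keratinocyte progenitors. miR-205 is best known from stratified and glandular epithelia and also represses the Zeb factors. The miR-200 family is furthermore known from the olfactory epithelium and from neural progenitors of the embryonic brain.

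The mature sequences show that the 7 loci, on 4 chromosomes, carry 4 different seeds. They are given 5′ to 3′ from RefSeq on GRCm38.p6 with the seed in capitals, for the arm by which each microRNA is usually known. The arm is the 3′ arm except for miR-205.
mmu-miR-200b-3p: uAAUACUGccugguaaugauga
mmu-miR-200c-3p: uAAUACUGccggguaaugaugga
mmu-miR-429-3p: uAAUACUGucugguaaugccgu
mmu-miR-200a-3p: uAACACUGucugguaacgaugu
mmu-miR-141-3p: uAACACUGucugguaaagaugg
mmu-miR-203-3p: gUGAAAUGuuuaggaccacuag
mmu-miR-205-5p: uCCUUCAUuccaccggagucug

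The seed AAUACUG was shared by miR-200b, miR-200c and miR-429, and the seed AACACUG by miR-200a and miR-141. Each seed is thus spread over both miR-200 clusters. No other mature microRNA of the RefSeq table carried any of the 4 seeds. The counts are per hairpin, however, and do not separate these arms from the opposite arm of each hairpin. Between the clusters, miR-200b-3p and miR-200c-3p were identical at 20 of 22 positions and differed by U11G and A22G, counted from 1 at the 5′ end. miR-200a-3p and miR-141-3p were also identical at 20 of 22 and differed by C17A and U22G. Within the cluster on chromosome 4, miR-200a-3p and miR-200b-3p were identical at 18 of 22, and 1 of their 4 differences, C4U, lies in the seed. miR-203-3p and miR-205-5p matched each other at 3 of 22 positions and the miR-200 arms at 5 to 9.

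This likeness bears on the counts, because multimapping reads were not assigned to any locus. The longest exact run that a member's hairpin shared with any other of 1005 RefSeq hairpins was 17 nt, between Mir200a and Mir141. Mir200b and Mir200c shared 14 nt, and the longest runs of Mir429, Mir205 and Mir203 were 12, 14 and 11 nt. A read of the full mature length therefore has 1 exact hairpin of origin among those hairpins. Reads shorter than those runs, or aligned with mismatches, were not analysed here.

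On mm10, the genome build of the tables, Mir200b (ENSMUSG00000065549), Mir200a (ENSMUSG00000065400.1) and Mir429 (ENSMUSG00000065427.1) lie on the minus strand of chromosome 4. Mir200a spans 156054896 to 156054985 and Mir429 spans 156053905 to 156053987, and GENCODE M21 places Mir200b from 156055681 to 156055750. The 3 hairpins fall within 1846 nt, inside introns of Ttll10, of the tubulin tyrosine ligase-like family, and within the noncoding transcript Gm13648, where Mir429 overlaps an exon. Mir141 (ENSMUSG00000065474.1) lies on the minus strand of chromosome 6 from 124717914 to 124717985, and Mir200c (ENSMUSG00000065462) is placed from 124718322 to 124718390, so that this pair spans 477 nt. Both fall in an intron of the noncoding transcript Gm15884, and Mir141 also overlaps an exon of the provisional transcript model Gm29008. Mir203 (ENSMUSG00000065574.1) lies on the plus strand of chromosome 12 from 112130880 to 112130955, between genes, 3321 nt from Aspg. Mir205 (ENSMUSG00000065533.1) lies on the minus strand of chromosome 1 from 193507463 to 193507530, in an exon of the long noncoding RNA 4631405K08Rik, which RefSeq calls Mir205hg. Mir200b and Mir200c carry an older ID version in the tables than in GENCODE M21, so the exact interval in which their reads were counted may differ from the coordinates given.

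Replicate 1 held 5093743 reads counted on the strand of a microRNA gene, and replicate 2 held 2935841. Levels are given as CPM, same-strand counts scaled to these totals, and a count of 0 would allow up to 0.589 CPM in replicate 1 and 1.02 CPM in replicate 2 (3 counts). Intervals are 95% exact Clopper-Pearson intervals, and they and these limits cover counting error only, since the reads carry no molecular identifiers in the tables. How evenly the RNAs of different loci were captured in the libraries was not measured, so ratios between loci are ratios of counts. The tables hold microRNA loci and no messenger RNA, so neither E-cadherin nor any other protein-coding marker of epithelium or brain was analysed here. Among microRNAs of neural tissue, Mir92b stood at 8440 and 9987 CPM and Mir137 at 9265 and 6397 CPM. Of the rest of the list, named after their values were seen, Mir128-1 stood at 529 and 534 CPM, Mir9-3 at 401 and 353 CPM, Mir128-2 at 341 and 387 CPM and the 2 Mir218 loci between 19.8 and 47.0 CPM. The 3 Mir124a loci and Mir9-2 were under 10 CPM in both libraries, and Mir9-1 has no row. Multimapping reads were assigned to no locus, and the sequences of these neural loci were not compared with each other here. Where a microRNA has several loci, as with Mir9, Mir124a, Mir128 and Mir218, these counts may miss reads and do not give its level.

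Mir203 had by far the most counts of the 7 loci, and the miR-200 loci and Mir205 had far fewer. All members together took 0.0625% of the counts in replicate 1 (interval 0.0603 to 0.0647%) and 0.0679% in replicate 2 (0.0649 to 0.0709%). Of those counts Mir203 alone held 88.4% in replicate 1 (87.2 to 89.5%) and 87.4% in replicate 2 (85.9 to 88.8%). In a piece of tissue, fewer cells of a type and less RNA per cell cannot be told apart, so these levels are averages over all cells of the midbrain.

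Mir203 had 2813 counts in replicate 1 and 1741 in replicate 2, which are 552 and 593 CPM. The mean was 573 ± 28.8 CPM (SD, n = 2), the 115th highest of 1973 loci, 719 of which had any same-strand count. Mir203 was the single member above 100 CPM in either library. The loci next to it in level were Mir101a at 577 ± 35.0 CPM and Mir676 at 572 ± 36.5 CPM, which lie nearest to it by choice.

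Mir205 had 93 and 68 counts, 18.3 and 23.2 CPM, with a mean of 20.7 ± 3.47 CPM (SD, n = 2) and the 284th place. Mir203 thus had 30.2 times the counts of Mir205 in replicate 1 (exact interval of the ratio 24.6 to 37.6) and 25.6 times in replicate 2 (20.1 to 33.1). The pair of epidermal microRNAs thus lay far apart in both libraries. Next to Mir205 in level were Mir218-1, of the motor neuron microRNA miR-218, at 20.8 ± 1.44 CPM and Mir344f at 20.1 ± 4.30 CPM.

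The miR-200 cluster on chromosome 4 held 175 counts in replicate 1 and 121 in replicate 2, 34.4 and 41.2 CPM. Most of them fell on Mir429, the hairpin farthest from the 5′ end of the cluster. Mir429 had 130 and 104 counts, 25.5 and 35.4 CPM, with a mean of 30.5 ± 7.00 CPM (SD, n = 2) and the 263rd place. Mir200b, the most 5′ hairpin, had 37 and 13 counts, 7.26 and 4.43 CPM, with a mean of 5.85 ± 2.01 CPM. Mir200a, between them, had 8 and 4 counts, 1.57 and 1.36 CPM, with a mean of 1.47 ± 0.147 CPM, the lowest of the 7 and the 438th place. The replicate ranges of the 3 hairpins did not overlap.

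Hairpins that lie side by side on this strand thus differed widely in counts. Mir429 had 16.3 times the counts of Mir200a in replicate 1 (8.01 to 38.4) and 26.0 times in replicate 2 (9.86 to 97.2). It had 3.51 times those of Mir200b in replicate 1 (2.42 to 5.21) and 8 times in replicate 2 (4.48 to 15.5). The hairpins at the ends of this range are shown with both annotated arms in capitals, read from the minus strand of chromosome 4.
Mir429 hairpin: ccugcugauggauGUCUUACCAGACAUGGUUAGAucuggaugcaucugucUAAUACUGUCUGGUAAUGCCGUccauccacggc
Mir200a hairpin: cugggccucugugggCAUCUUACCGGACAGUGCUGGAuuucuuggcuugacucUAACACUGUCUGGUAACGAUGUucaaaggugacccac
The tables give 1 count per hairpin, so the share of each arm was not measured.

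The cluster on chromosome 6 held 102 and 62 counts, 20.02 and 21.1 CPM. Mir200c had 87 and 55 counts, 17.1 and 18.7 CPM, with a mean of 17.9 ± 1.17 CPM (SD, n = 2) and the 291st place. Mir141, which lies 405 nt downstream, had 15 and 7 counts, 2.94 and 2.38 CPM, with a mean of 2.66 ± 0.396 CPM. Mir200c had 5.80 times the counts of Mir141 in replicate 1 (3.33 to 10.8) and 7.86 times in replicate 2 (3.57 to 20.5). The plot of CPM along both clusters shows this pattern.

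**Figure D1:**
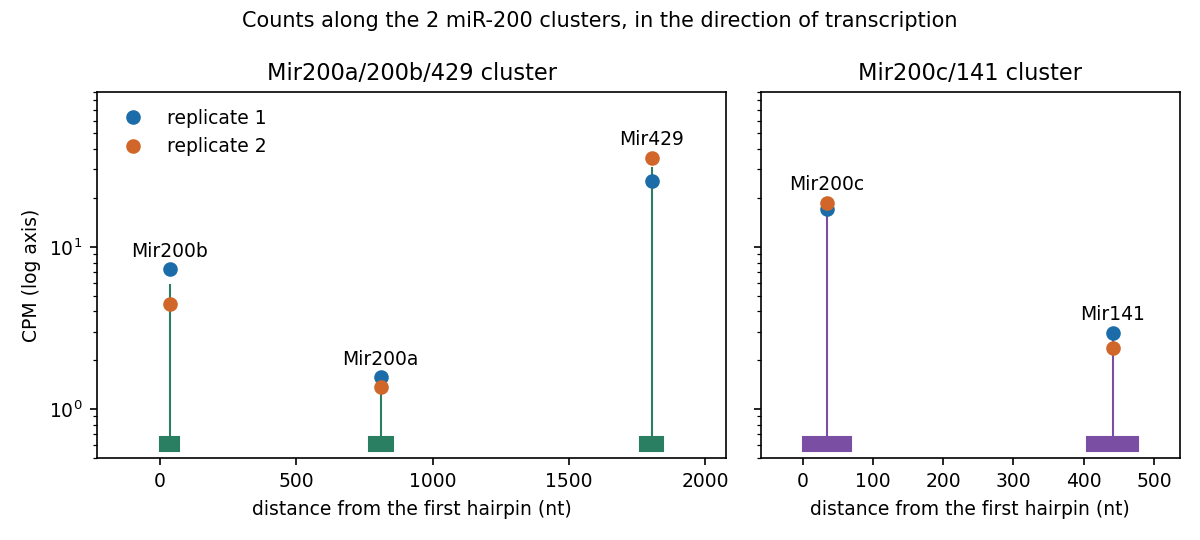
CPM (log axis) against distance in nt from the most 5′ hairpin, for the chromosome 4 cluster (left) and the chromosome 6 cluster (right), with boxes for hairpins, points for the 2 replicates and a line up to their mean. Mir429 stands at 25.5 and 35.4 CPM at the 3′ end of its cluster, Mir200c at 17.1 and 18.7 CPM at the 5′ end of the other, and Mir200a and Mir141 lie below 3 CPM in both libraries.

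In both clusters the loci with the seed AACACUG were lower than those with the seed AAUACUG. The 3 loci with AAUACUG (Mir200b, Mir200c and Mir429) summed to 254 and 172 counts, 49.9 and 58.6 CPM. The 2 loci with AACACUG (Mir200a and Mir141) summed to 23 and 11 counts, 4.52 and 3.75 CPM. The ratio of the sums was 11.0 in replicate 1 (7.20 to 17.7) and 15.6 in replicate 2 (8.52 to 31.9), and these intervals overlap. A single base in the seed, position 4 of the arm, separates these groups.

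Set against each other, the chromosome 4 cluster held more counts than the chromosome 6 cluster in both libraries. The ratio of the sums was 1.72 in replicate 1 (1.34 to 2.21) and 1.95 in replicate 2 (1.43 to 2.70). All 5 miR-200 loci together reached 54.4 and 62.3 CPM, which was 2.98 times the counts of Mir205 in replicate 1 (2.35 to 3.81) and 2.69 times in replicate 2 (2.03 to 3.61). Mir203 exceeded the 5 miR-200 loci together by 10.2 times in replicate 1 (8.97 to 11.5) and 9.51 times in replicate 2 (8.17 to 11.1). The counting intervals of the libraries overlapped for each of these ratios, which does not show the proportions to be equal, and their difference between the libraries was not tested.

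The order of the mean levels was Mir203, Mir429, Mir205, Mir200c, Mir200b, Mir141 and Mir200a, and it was the same when CPM was divided by hairpin length. Mir205 and Mir200c did not differ beyond their spread, since their replicate ranges overlapped and their ratio was 1.07 in replicate 1 (0.789 to 1.45). Mir141 and Mir200a had separate replicate ranges, but the counting interval of their ratio held 1 in both libraries (0.746 to 5.11 and 0.445 to 8.15). Mir200b exceeded Mir141 in replicate 1 (ratio 2.47, 1.32 to 4.84), while in replicate 2 the interval held 1 (0.689 to 5.50). For the other neighbours in the order, the counting interval of the ratio did not hold 1 in either library.

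**Figure D2:**
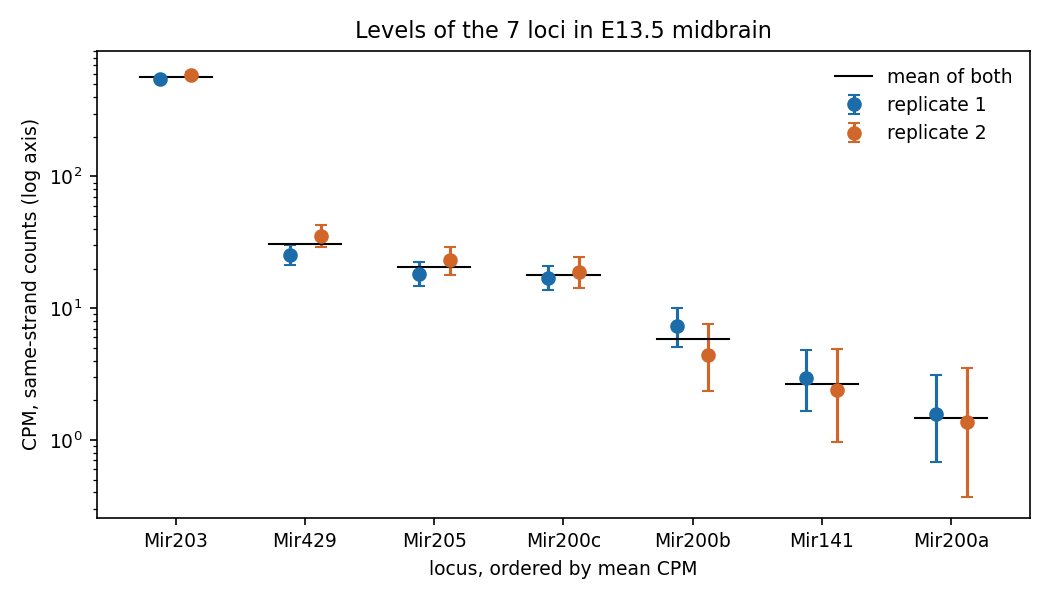
CPM of same-strand counts (log axis) for the 7 loci in order of mean level, with 1 point per replicate, bars for the 95% exact Clopper-Pearson interval and a line for the mean of both. Mir203 stands at 552 and 593 CPM, Mir429, Mir205 and Mir200c between 17.1 and 35.4 CPM, and Mir200b, Mir141 and Mir200a below 10 CPM with wide intervals.

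**Figure D3:**
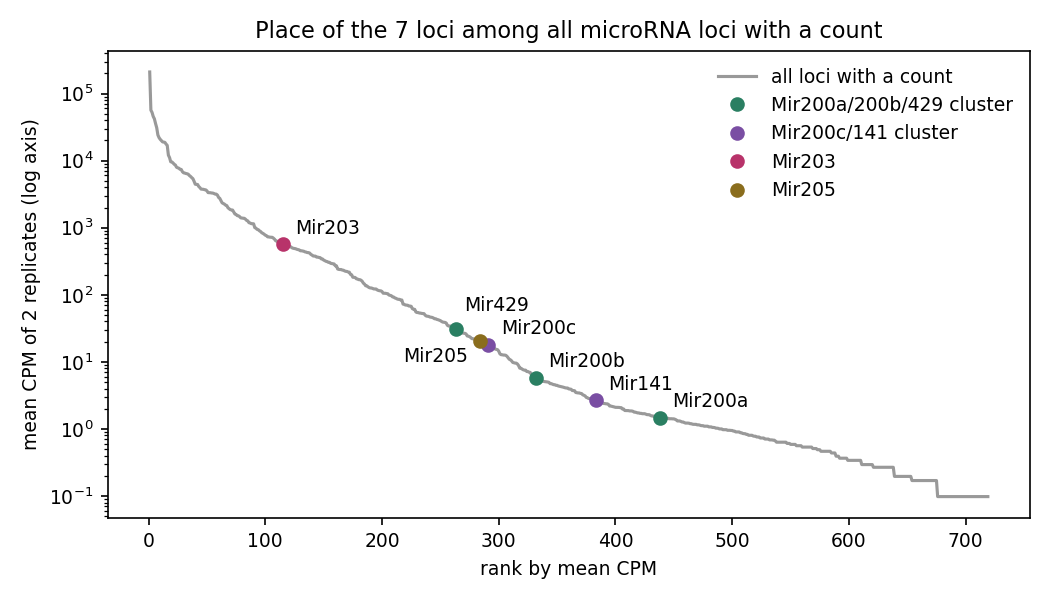
Mean CPM of the 2 replicates (log axis) against rank for all microRNA loci with at least 1 count, with the 7 loci as coloured points. Mir203 is at rank 115, Mir429, Mir205 and Mir200c lie at ranks 263 to 291, and Mir200b, Mir141 and Mir200a lie at ranks 332, 383 and 438.

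The opposite strand of Mir203 also carried reads. The tables give 66 opposite-strand counts at Mir203 in replicate 1 and 33 in replicate 2, which are 2.29% (interval 1.78 to 2.91%) and 1.86% (1.28 to 2.60%) of all reads at the locus. The other 6 members had none in either library. RefSeq annotates arms of miR-203b on that strand, within the interval of the Mir203 hairpin, and these are shown with the hairpin, whose own arms are in capitals.
Mir203 hairpin: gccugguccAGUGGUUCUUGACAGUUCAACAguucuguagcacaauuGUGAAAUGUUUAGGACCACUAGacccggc
mmu-miR-203b-3p: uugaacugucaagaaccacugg
mmu-miR-203b-5p: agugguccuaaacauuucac
miR-203b-3p overlaps the 5′ arm of miR-203 by 20 nt and miR-203b-5p overlaps its 3′ arm by 20 nt, each as its complement. The tables do not place reads within a hairpin, so which arm the opposite-strand reads came from was not measured. Among 466 loci with at least 10 same-strand counts, 38 had any opposite-strand count, and in 13 of them, Mir203 included, the opposite-strand share over both libraries was at least the 2.13% of Mir203.

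Between the libraries, Mir203 and Mir429 were higher in replicate 2, and the other 5 loci did not pass the test. Each locus was tested with the exact binomial distribution of its counts over the libraries, two-sided and conditional on TMM-scaled depths (trimmed mean of M-values), with Benjamini-Hochberg adjustment over all 466 loci at 0.05. This test compares these libraries, not conditions, and it takes in counting error but no spread between animals. It called 38.0% of all loci tested, 18.7% higher in replicate 1 and 19.3% higher in replicate 2, against 2 of the 7 members, both higher in replicate 2. Over both directions the members' share is thus not above that of all loci. For replicate 2 alone, the 2 of 7 stand above the 19.3% of all loci, a difference that was not tested.

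For Mir203 the log2 ratio of replicate 1 to replicate 2 was -0.17 (exact interval -0.26 to -0.08), 1.125-fold higher in replicate 2, with an adjusted p of 0.000506. With total counts in place of TMM, where 38.8% of all loci were called, the Mir203 ratio was -0.10 and its adjusted p was 0.0513, which ends the call by this exact test. For Mir429 the log2 ratio was -0.53 (-0.92 to -0.15), 1.44-fold higher in replicate 2, with an adjusted p of 0.0153 by the same exact test and 0.0379 with total counts. Neither locus was called when a fold of at least 1.5 was also required, as were 7.30% of all loci. Neither was called by edgeR's exact negative binomial test, whose dispersion takes in the spread between the libraries (biological coefficient of variation 0.157). Because that dispersion came from the same 2 libraries that were compared, a missing call does not show the libraries to be equal. The negative binomial test called 0.858% of the loci, 4 of 466 (24 at an unadjusted p under 0.05, none of them a member). The 4, named after their values were seen, were Mir375, Mir449a and Mir122, higher in replicate 2, and Mir3070a, higher in replicate 1.

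Of the loci that did not pass, Mir205 had a log2 ratio of -0.40 (interval -0.88 to 0.06) and Mir200c one of -0.19 (-0.70 to 0.31). Mir200b had a ratio of 0.59 (-0.30 to 1.68), Mir141 one of 0.20 (-1.14 to 1.77) and Mir200a one of 0.10 (-1.76 to 2.32). Their intervals hold 0 and reach past a 1.5-fold difference in at least 1 direction, so the depth does not show these loci to be equal in the libraries. The median log2 ratio was -0.17 over the 7 members and -0.0041 over all loci tested.

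MicroRNAs of other cell types that the dissected tissue could hold were read beside these ratios, and their counts of called loci stand against the 19.3% of all loci called higher in replicate 2 and the 18.7% called higher in replicate 1. The choroid plexus list (6 of 7 loci tested) had 5 loci higher in replicate 2, and its summed level was 1239 CPM in replicate 1 and 1977 CPM in replicate 2, led by Mir204 at 736 and 1018 CPM and Mir1298 at 410 and 802 CPM. The endocrine and gut list had 2 of 5 loci higher in replicate 2 and summed to 1040 and 1957 CPM, led by Mir375 at 523 and 1365 CPM. The Mir34 and Mir449 list, of multiciliated cells, had 2 of 6 higher in replicate 2 and summed to 1369 and 2707 CPM, led by Mir449a at 859 and 2166 CPM. The summed levels of these 3 lists were higher in replicate 2, as were Mir203 and Mir429, but the sums rest largely on the leading loci, and single loci such as Mir217 (log2 ratio 0.045) and Mir34a (0.19), named after their values were seen, lay the other way without passing the test. The part of these cell types in the result for Mir203 and Mir429 was not tested.

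The next lists stand against the same 19.3% of all loci called higher in replicate 2 and 18.7% in replicate 1. The mesenchymal list had 4 of 6 tested loci higher in replicate 2 and summed to 8967 and 10823 CPM, led by Mir143 at 4991 and 6626 CPM, and endothelial Mir126a, also higher in replicate 2, stood at 16256 and 21170 CPM. The blood list had 1 of 6 higher in each replicate and summed to 412 and 436 CPM. Of the neural list, 1 of 11 was higher in replicate 1 and 2 in replicate 2. No list was at 0, and every listed locus with a row had a count in at least 1 library, while Mir142 of the blood list has no row of its own name. A row for Mir142b holds 0 same-strand counts and 1069 and 807 counts on the opposite strand, on which RefSeq places Mir142, and these entered no list.

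Other microRNAs of epithelia were present beside the members. The sensory cluster of miR-183, miR-96 and miR-182, made in hair cells, photoreceptors and other sensory epithelia, summed to 2264 CPM in replicate 1 and 1730 CPM in replicate 2, above the 625 and 679 CPM of the 7 members. Mir182 (893 and 502 CPM, log2 ratio 0.76) and Mir96 (340 and 291 CPM, 0.16) were higher in replicate 1, and Mir183 (1032 and 937 CPM) did not pass. Among 5 other loci known from epithelia of the skin, gut and kidney, 4 were tested and none passed by the exact binomial test. The highest of them were Mir192 at 91.3 and 103 CPM and Mir194-2 at 66.4 and 69.5 CPM, both above Mir429 in each library. Any reads that map to both Mir194-2 and Mir194-1 were counted at neither, so the level of Mir194-2 may be too low.

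**Figure D4:**
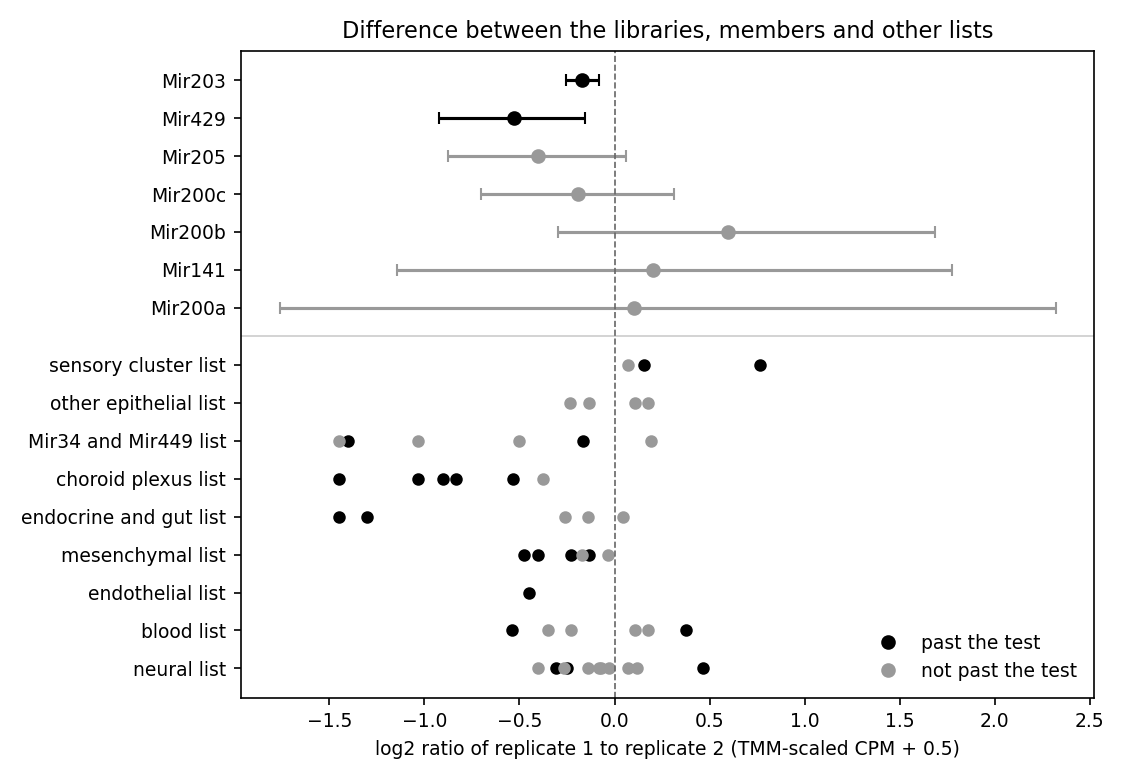
Log2 ratio of replicate 1 to replicate 2 (TMM-scaled CPM with a pseudocount of 0.5) for the 7 loci, with 95% exact intervals, and for the tested loci of 9 other lists, in black where the exact binomial test passed. Mir203 (-0.17) and Mir429 (-0.53) lie left of 0, the choroid plexus list lies left of 0 throughout, and the sensory cluster lies right of 0.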

How the data were processed

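The authors deposited raw read counts per gene, 1 table per library with 3 count columns, built on mm10 and annotation M4, per the file headers. The sources used here name no aligner and no trimming or read filter. In all 1973 gene rows the column without regard to strand equals the sum of the others, which were read as same-strand and opposite-strand counts, an inference from the values. The rows without a gene were left out: unmapped reads were 16.1% and 15.7%, multimapping 34.4% and 37.7% and unassigned 3.79% and 3.80% of all reads, and ambiguous reads 0.

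CPM used same-strand counts of all gene rows as total, and ratios with a pseudocount of 0.5 CPM. Symbols came from GENCODE M21 by ID without version (1894 of 1973 matched) and sequences from RefSeq on GRCm38.p6. With 1 group, edgeR's quasi-likelihood test has no contrast. Loci with at least 10 counts were compared by an exact binomial test of replicate 1 against replicate 2 with TMM factors (edgeR 4.0.16, R 4.3.3, scipy 1.17.1, Python 3.11.15). The test was tried on simulated data with counting error only, so that trial does not cover spread between animals. Alternatives tried were total counts, size factors of DESeq2 1.42.0, other count minimums, unstranded counts, thinning of replicate 1, edgeR's negative binomial test, a required fold, another pseudocount, another denominator and leaving out a replicate. The members, the 9 other lists and the rule for named loci (the members, the loci next to them in level, the highest 2 of each list and those past the test) were chosen with earlier results of these data known.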

Additional observations from a re-analysis of the deposited data

Results flagged for a closer look

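Counts on the strand opposite Mir203 lie outside the same-strand measurement and exceed the 3 counts that a count of 0 allows. There were 66 in replicate 1 and 33 in replicate 2, at a place where RefSeq lists arms of miR-203b. The part of miR-203b in these counts was not tested.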

How the results depend on the processing

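The 2 called members stayed 2 with DESeq2 size factors, no filter, at least 50 counts (5 members tested), unstranded counts and thinning of replicate 1. With total counts the number was 1, and with a fold of at least 1.5 or the negative binomial test it was 0, while the number of all called loci fell from 177 to 34 and to 4. With total counts 61.9% of the called loci were higher in replicate 1, against 49.2% with TMM. Of 61 member results under other settings, 55 kept direction and call, and 5 lost the call, those of Mir203 and Mir429 named in the report. The 1 that changed sign was Mir141 with thinning, at -0.058 in place of 0.20, called in neither. With the negative binomial test and the required fold the ratio was that of the main setting, so its direction could not change. A required fold could only remove a call, and the other pseudocount left the adjusted p-values as they were. The values of uncalled loci still moved with thinning, Mir200a from 0.10 to 0.58 and Mir200b from 0.59 to 0.29. The summed share of the members was 0.0652%, and 0.0359% with multimapping reads in the denominator. Within a library this lowers every level by the same factor, but it lowers replicate 2 more than replicate 1. Multimapping reads were 34.4% of all reads in replicate 1 and 37.7% in replicate 2. The ratios between the libraries were not recomputed with that denominator. Without replicate 1 the summed share was 0.0679% and without replicate 2 it was 0.0625%, which shows no stability with 2 libraries, and with 1 library no test could be run. Mir200a and Mir141, with at most 15 counts in a library, are limited by depth. No paired analysis was possible because the series has 1 group.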
